A study of Mus musculus with 6 samples.

Results

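The genes described here are 9 heavy chains of the mouse major histocompatibility complex (MHC) class I and B2m, the light chain they pair with, 10 genes of the 54532 in the count table. They were taken by symbol: H2-K1, H2-D1, H2-Q4, H2-Q6, H2-Q7, H2-T22, H2-T23, H2-M3, H2-M2 and B2m, each with 1 row. All 10 passed the filter on low counts and were among the 12844 genes tested. RNA sequencing counts came from DC2.4, an immature dendritic cell line of the mouse. The 3 control libraries were from cells given the empty pTT5 vector, and the 3 others from cells given a Vdbp vector, labelled as overexpressing Vdbp. Vdbp is the vitamin D-binding protein, whose gene is Gc. Per the labels both kinds of cell were passaged 48 h after transfection and then kept under selection, and no other agent is named. Whether replicate libraries came from separate transfections is not in the labels, so p-values reflect only how much these samples vary, which may be technical.

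A class I molecule is a heavy chain that holds a short peptide in its groove and is stabilised at the cell surface by beta-2-microglobulin, the product of B2m. Peptides cut by the proteasome are moved into the endoplasmic reticulum by the TAP transporter and loaded there, and CD8 T cells read the complex. The classical chains of this haplotype are H2-K1 and H2-D1, which dendritic cells use to prime CD8 T cells. The others are nonclassical chains, with narrower ligands and more restricted expression. NF-kB, interferon response factors and the coactivator NLRC5 are known to act on class I promoters.

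Library totals lay between 15563800 and 16710975 counts. Gc had 0 counts in all 6 libraries, where a count of 0 allows up to 0.177 to 0.192 CPM (3 counts, counting error only). Overexpression of Vdbp was therefore not seen in the counts. Whether RNA from the vector would be counted as Gc was not tested, and the groups go by their labels. CPM here uses library sizes adjusted by TMM, and FPKM is the authors' value per kilobase of gene. Of the dendritic cell markers, Itgax (49.6 ± 2.06 and 51.0 ± 5.25 CPM with empty vector and Vdbp label, SD, n = 3 each), Irf8 and Cd86 were counted well. Zbtb46 was low, at 2.69 ± 0.72 and 2.85 ± 0.24 CPM. Flt3, Batf3, Xcr1, Clec9a, H2-Aa and Ciita stayed at or under 0.223 CPM as group means. The 10 dendritic cell markers summed to 186 to 204 CPM with empty vector and 181 to 191 CPM with the Vdbp label. All 8 macrophage and monocyte markers were counted, with a summed level of 2849 to 3153 CPM with empty vector and 2702 to 3162 CPM with the Vdbp label. Most of that sum was Cd68 (group means of 1245 and 1204 CPM with empty vector and Vdbp label), Adgre1 (671 and 583 CPM) and Csf1r (580 and 614 CPM). Mrc1 was low, at 5.07 and 3.74 CPM, as was Ly6c2, at 1.47 and 1.34 CPM. Of the 7 lymphocyte markers 5 had 0 counts, and of the 6 fibroblast and epithelial markers 3 did. The counts of each library also followed GC content to a different degree. Taken across genes, the deviation of empty-vector replicate 1 from the 6-library mean had a Spearman's rho with GC content of −0.07, replicate 2 of −0.62 and replicate 3 of 0.07. For Vdbp replicate 1 the rho was 0.73, for replicate 2 it was −0.03 and for replicate 3 −0.40. Empty-vector replicate 2 and Vdbp replicate 1 were also the ends of the main axis of variation in log2(CPM + 1), which held 50.1% of the variance. The share of counts from mitochondrial genome genes was highest in the first of these (2.61%) and lowest in the other (1.49%). It was 1.80% to 2.18% in the rest, and its part in the patterns below was not tested.

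The promoters show which of these genes share regulatory letters, and 4 are printed as examples. Whether the letters go with the patterns of expression described below was not tested. The 250 bases before the start of transcription come from the RefSeq table on GRCm38.p6, in which all 10 genes were found. Capitals mark letters that match any of 5 motifs, searched on both strands. The motifs were GGGATTCCC (an NF-kB motif), TTTCACTTC (from the interferon consensus sequence of class I promoters), GAAANNGAA (from the interferon-stimulated response element), TGACG (the core of a cyclic AMP response element) and CCAAT. No match overlapped another in the printed windows. H2-K1 is at chr17:34000334-34000583 on the minus strand, H2-Q7 at chr17:35438905-35439154 on the plus strand, B2m at chr2:122147437-122147686 on the plus strand and H2-M2 at chr17:37483555-37483804 on the minus strand.
H2-K1: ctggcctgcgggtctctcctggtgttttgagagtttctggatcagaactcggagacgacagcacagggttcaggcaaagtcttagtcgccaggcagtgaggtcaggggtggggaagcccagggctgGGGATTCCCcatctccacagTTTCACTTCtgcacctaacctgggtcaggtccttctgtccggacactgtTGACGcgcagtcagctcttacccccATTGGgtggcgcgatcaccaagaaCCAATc
H2-Q7: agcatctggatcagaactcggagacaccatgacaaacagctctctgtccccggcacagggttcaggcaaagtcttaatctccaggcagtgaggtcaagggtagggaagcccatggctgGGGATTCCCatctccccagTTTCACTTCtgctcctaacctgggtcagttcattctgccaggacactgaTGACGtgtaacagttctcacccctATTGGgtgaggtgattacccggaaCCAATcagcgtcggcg
B2m: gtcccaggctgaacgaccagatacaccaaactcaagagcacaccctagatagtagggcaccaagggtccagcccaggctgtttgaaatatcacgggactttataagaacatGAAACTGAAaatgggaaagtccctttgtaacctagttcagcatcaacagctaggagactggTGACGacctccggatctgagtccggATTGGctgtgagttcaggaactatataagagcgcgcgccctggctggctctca
H2-M2: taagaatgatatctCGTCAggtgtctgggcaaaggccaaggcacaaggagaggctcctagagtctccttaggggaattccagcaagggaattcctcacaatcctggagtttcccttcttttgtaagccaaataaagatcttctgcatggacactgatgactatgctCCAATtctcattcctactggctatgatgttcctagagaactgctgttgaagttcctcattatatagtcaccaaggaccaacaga
The motif GGGATTCCC was present in 4 of the 10 genes, H2-K1, H2-D1, H2-Q6 and H2-Q7, and in 0.353% of 32851 promoter windows of 300 bases from all genes. TTTCACTTC was present in 6, these 4 with H2-Q4 and H2-M3, against 0.505% of all windows. GAAANNGAA was found in 3 others, B2m, H2-T22 and H2-T23, against 8.56%. TGACG was in 8 of the 10 (20.8% of all windows) and CCAAT in all 10 (37.4%). Of the motifs searched, H2-M2 had only the 5-base motifs TGACG and CCAAT. Only the letters given above were searched, so variant NF-kB or interferon sites in any of the 10 genes were not counted. A match describes the letters of the window and no binding was measured. TTTCACTTC was taken from class I promoters and the heavy chains belong to the same gene family, so many matches were likely beforehand. The matches are not independent of each other, and the shares of all windows are given as description and not as a test.

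B2m was the most abundant of the 10 transcripts per length. It encodes the shared light chain (ENSMUSG00000060802, chromosome 2, 122147686 to 122153083, plus strand) and had 2766, 3048 and 2283 FPKM in the empty-vector libraries and 2366, 2288 and 2612 FPKM in the Vdbp libraries. The classical heavy chains followed well below it. H2-K1 (ENSMUSG00000061232, chromosome 17, 33996017 to 34000333, minus strand) had 612, 578 and 609 FPKM in the empty-vector libraries and 697, 584 and 557 FPKM in the Vdbp libraries. H2-D1 (ENSMUSG00000073411, chromosome 17, 35262730 to 35267499, plus strand) had 577, 527 and 639 FPKM with empty vector and 717, 593 and 566 FPKM with the Vdbp label. Levels of H2-K1 and H2-D1 overlapped, and H2-K1 was the higher of them in 2 of 6 libraries. That order depends on the gene lengths of the table, 2608 and 2579 bases. With the longest protein-coding transcripts of GENCODE M21 (1619 and 2102 bases) as lengths, an alternative chosen after seeing the data, H2-K1 was higher in all 6 libraries and the ranges did not overlap.

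The nonclassical chains lay far lower. H2-T23, which encodes Qa-1, the chain read by the CD94-NKG2A receptor of natural killer cells, ranged from 61.7 to 83.7 FPKM over the 6 libraries (median 67.7). H2-Q4 had 32.0 to 39.8 FPKM (median 36.4), and H2-T22, a ligand of some gamma-delta T cell receptors, had 29.0 to 35.4 FPKM (median 32.7). The ranges of H2-Q4 and H2-T22 overlapped, but H2-Q4 was higher in each of the 6 libraries. With the transcript lengths (1793 bases for H2-Q4 and 1761 for H2-T22, against 2596 and 3414 in the table) H2-Q4 was higher in 0 of the 6. H2-M2, a chain of the H2-M region, had 15.5 to 24.5 FPKM (median 19.6), and H2-M3, which presents N-formylated peptides of bacteria and mitochondria, 17.2 to 19.6 FPKM (median 18.7). These ranges overlapped, with H2-M2 the higher in 4 libraries. H2-Q6 (10.6 to 12.6 FPKM, median 11.5) and H2-Q7 (7.02 to 10.2 FPKM), of the Qa-2 group, were the lowest. Every other neighbouring pair in this order, on the table's lengths, had ranges that did not overlap. With the transcript lengths H2-Q7 was above H2-Q6 in all 6 libraries, and by mean level the order under H2-Q4 became H2-Q7, H2-M2, H2-M3 and H2-Q6, of which H2-M2 overlapped both its neighbours.

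**Figure D1:**
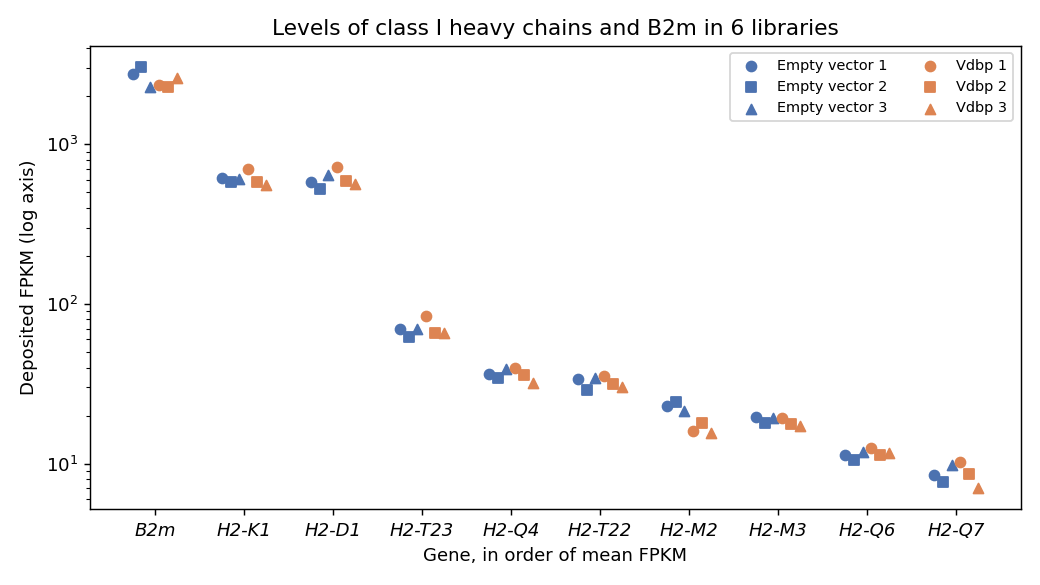
Deposited FPKM on a log axis for each of the 10 genes, in order of mean level, with 1 point per library (blue, empty vector; orange, Vdbp label; shape, replicate number). B2m lies between 2283 and 3048 FPKM, H2-K1 and H2-D1 overlap on the table's gene lengths, and the nonclassical chains stay at or under 83.7 FPKM.

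H2-K1 and H2-D1 made up most of the heavy-chain RNA. Their share of the summed FPKM of the 9 heavy chains was 85.6% ± 0.20 with empty vector and 86.4% ± 0.30 with the Vdbp label (SD, n = 3 each). That share was 85.5% to 85.8% in the empty-vector libraries and 86.2% to 86.7% in those with the Vdbp label. The groups did not overlap, by a margin under 1 percentage point. The sum includes H2-M2, which was lower in all 3 Vdbp libraries. How often such a share separates the groups for other sets of genes was not tested. The 10 genes held 0.56% to 0.62% of all counts in a library. With the transcript lengths the share was 83.8% ± 0.20 and 84.3% ± 0.18. All per-length levels, shares and ratios rest on the gene lengths of the table. The gap was widest for H2-Q7, 4265 bases against 1523 for its transcript, and H2-Q7 had the higher count in each library, 471 to 709 against 369 to 426 for H2-Q6.

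Some of these genes are similar enough in sequence that reads could be counted for a neighbour. In the longest protein-coding transcript of each gene, windows of 100 bases were searched in the transcripts of all other genes on both strands. No window of H2-K1, B2m, H2-M3 or H2-M2 was found elsewhere. The shared part was 4.64% of windows in H2-D1, 7.28% in H2-T23, 13.0% in H2-Q6, 13.9% in H2-Q4, 14.2% in H2-T22 and 16.4% in H2-Q7. With windows of 150 bases it was smaller: 0.83% in H2-T23, 0.93% in H2-T22, 1.79% in H2-D1, 5.99% in H2-Q6, 8.39% in H2-Q4 and 9.68% in H2-Q7. H2-Q6 and H2-Q7 shared most with each other, and H2-T22 with H2-T10. How the counting treated such reads is not given in the sources used here, so the levels of these 6 genes are less certain than those of the 4 without shared windows.

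The question the design poses is whether expression differs between the libraries labelled as overexpressing Vdbp and the controls. No class I gene passed the test. edgeR's quasi-likelihood test with Benjamini-Hochberg adjustment called 0 of the 10 at an adjusted p under 0.05, and 0 of 12844 genes in the whole table (0%). At an unadjusted p under 0.05 there was 1 of the 10, H2-M2, against 5.35% of all tested genes. The log2 fold changes of the 10 had a median of −0.01, 5 above 0 and 5 below, and the median over all tested genes was −0.01. An offset that removes trends of gene length and GC content from each library was then added. With it 0 of the 10 were above 0 and all 10 below, against 6397 of 12844 tested genes above 0. The median was −0.05 against 0.00 over all tested genes, and 0 of the 10 were called. Some of the 10 lay very near 0, such as H2-T23 at −0.00026 (95% interval −0.13 to 0.13). The signs are not independent, since 8 heavy chains had similar patterns over the libraries (below).

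H2-M2 had the largest difference of the 10, and it was lower in the libraries labelled Vdbp. The gene (ENSMUSG00000016283, chromosome 17, 37480851 to 37483552, minus strand) had 578, 637 and 560 counts in the empty-vector libraries and 400, 466 and 377 counts in the Vdbp libraries. These are 35.5, 38.5 and 33.1 CPM against 24.9, 27.8 and 24.1 CPM. All 3 Vdbp libraries lay below all 3 empty-vector libraries, as did 5.61% of all tested genes. The log2 fold change was −0.48 (SE 0.12, 95% interval −0.73 to −0.23), a fold of 0.718 (0.602 to 0.855). Its unadjusted p in edgeR was 0.00144, which ranked 16 among the 12844 genes, and its adjusted p was 0.781. H2-M2 was named earlier from these same libraries for its small p, so this value is a description and not independent evidence. With the length and GC offset the log2 fold change was −0.46 (95% interval −0.64 to −0.27), with an adjusted p of 0.207 in edgeR. DESeq2 gave an adjusted p of 0.456.

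For B2m the mean level was 2336 ± 344 CPM in the empty-vector group and 2093 ± 147 CPM in the Vdbp group (SD, n = 3 each). The libraries had 2381, 2655 and 1971 CPM in the first group and 2052, 1972 and 2256 CPM in the other. The groups overlapped, and the lowest value of all, 1971 CPM, was in an empty-vector library. The log2 fold change was −0.16 (95% interval −0.42 to 0.10) with an adjusted p of 0.781 in edgeR. After the length and GC correction it was −0.04, with an interval of −0.27 to 0.19. The GC content of the B2m transcript was 41.2%, the lowest of the 10.

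The classical heavy chains differed between the groups by less than the spread between replicates. H2-K1 had 1597, 1526 and 1595 CPM with empty vector and 1834, 1526 and 1459 CPM with the Vdbp label. Vdbp replicates 1 and 3 were the highest and the lowest of the 6, so the Vdbp group spanned all empty-vector values. The log2 fold change was 0.03 (95% interval −0.20 to 0.26, adjusted p 0.935 in edgeR). As folds the interval of H2-K1 is 0.870 to 1.20, and it reflects only how much these libraries vary. H2-D1 had 1489.5, 1378 and 1654 CPM with empty vector and 1865, 1531 and 1466 CPM with the Vdbp label. Vdbp replicate 1 stood above all others and the remaining libraries mixed. The log2 fold change of H2-D1 was 0.10 (95% interval −0.15 to 0.36, adjusted p 0.806 in edgeR). Without Vdbp replicate 1 the values were −0.07 for H2-K1 and −0.01 for H2-D1, and with the length and GC correction −0.06 and −0.01. The sign of both therefore depended on that library and on the correction.

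H2-T23 showed the same single high library, with 201, 181 and 202 CPM with empty vector and 244, 189.6 and 191 CPM with the Vdbp label. Its log2 fold change was 0.10 (95% interval −0.15 to 0.34) and became 0.00 with the length and GC correction. H2-T22 had 115, 100.1 and 118 CPM against 122, 108 and 104 CPM, a log2 fold change of 0.00 (95% interval −0.22 to 0.23), and −0.02 with the correction. Both genes encode nonclassical chains of the H2-T region, and in both the groups overlapped.

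The H2-Q genes and H2-M3 did not separate the groups. H2-Q4 had 95.4, 90.0 and 102 CPM with empty vector and 104, 94.1 and 83.4 CPM with the Vdbp label, a log2 fold change of −0.03 (95% interval −0.26 to 0.20), which was −0.12 (−0.25 to 0.01) with the length and GC correction. H2-Q7 had 36.4, 33.3 and 41.9 CPM against 43.8, 36.6 and 30.1 CPM, a log2 fold change of −0.01 (95% interval −0.33 to 0.31), and −0.06 (−0.29 to 0.18) with the correction. In both genes the highest and the lowest library carried the Vdbp label. H2-Q6 had 23.5, 22.3 and 24.9 CPM against 26.5, 23.8 and 24.3 CPM, a log2 fold change of 0.08 (95% interval −0.17 to 0.33), and −0.02 with the correction. With the counts of H2-Q6 and H2-Q7 summed to a single gene, the log2 fold change was 0.02. H2-M3 had 28.2, 26.3 and 27.9 CPM against 28.0, 25.6 and 24.8 CPM, a log2 fold change of −0.07 (95% interval −0.31 to 0.17) and of −0.11 (−0.28 to 0.07) with the correction. Its groups overlapped.

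The precision of these values was close to that of the table as a whole. The standard error of the log2 fold change was 0.10 to 0.15 for the 10 genes, against a median of 0.14 over all tested genes. The 95% interval lay within 1.5-fold for 9 of the 10 and within 2-fold for all 10, H2-M2 included. In bulk RNA, fewer cells expressing a gene and less RNA per cell cannot be told apart.

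**Figure D2:**
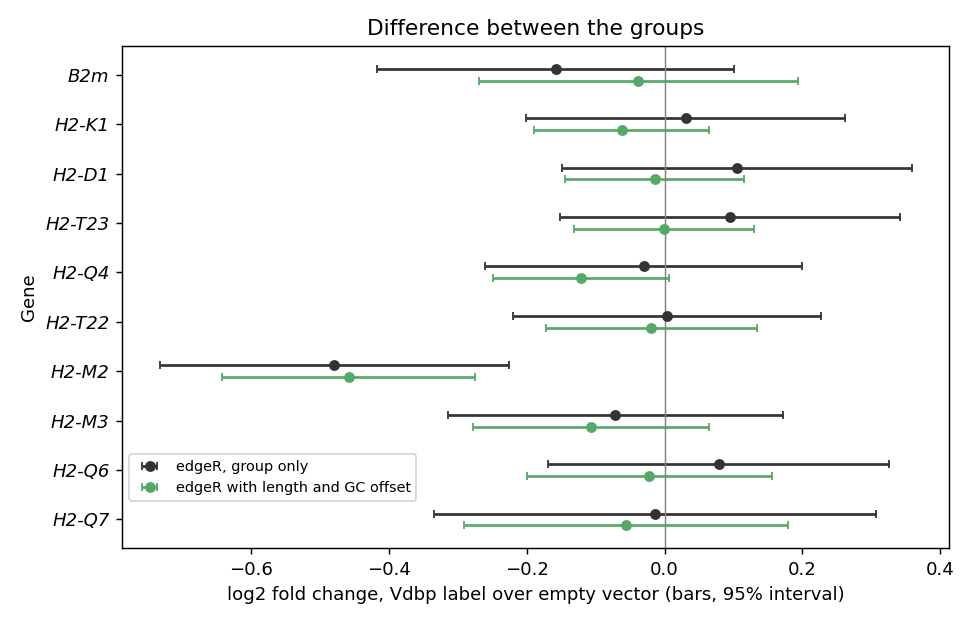
Log2 fold change of each gene, Vdbp label over empty vector, with 95% intervals, from edgeR with group as the only term (black) and with the length and GC offset (green). Intervals of 9 genes cross 0 in both fits, and that of H2-M2 lies from −0.73 to −0.23 and from −0.64 to −0.27.

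Across the 6 libraries 8 of the 9 heavy chains had patterns closer to each other than to those of B2m and H2-M2. Vdbp replicate 1 was the highest library for 7 of the 9 heavy chains, the exceptions being H2-M2 and H2-M3. The lowest library was Vdbp replicate 3 for 5 of them and empty-vector replicate 2 for the other 4. B2m had its highest value in empty-vector replicate 2, 0.27 log2 units above its mean, where H2-D1 was at −0.18. The likeness of patterns was measured as the root mean square difference of log2 CPM, each gene centred on its 6-library mean. Among the 8 heavy chains other than H2-M2 it was 0.0502 to 0.145 (median 0.0762 over 28 pairs). B2m differed from these 8 by 0.180 to 0.307, and H2-M2 by 0.237 to 0.347. No such differences were computed for pairs of genes outside the class I set. The genes named below for H2-K1 and H2-D1 were closer to them than any other heavy chain was. The likeness is therefore not shown to be particular to class I genes.

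**Figure D3:**
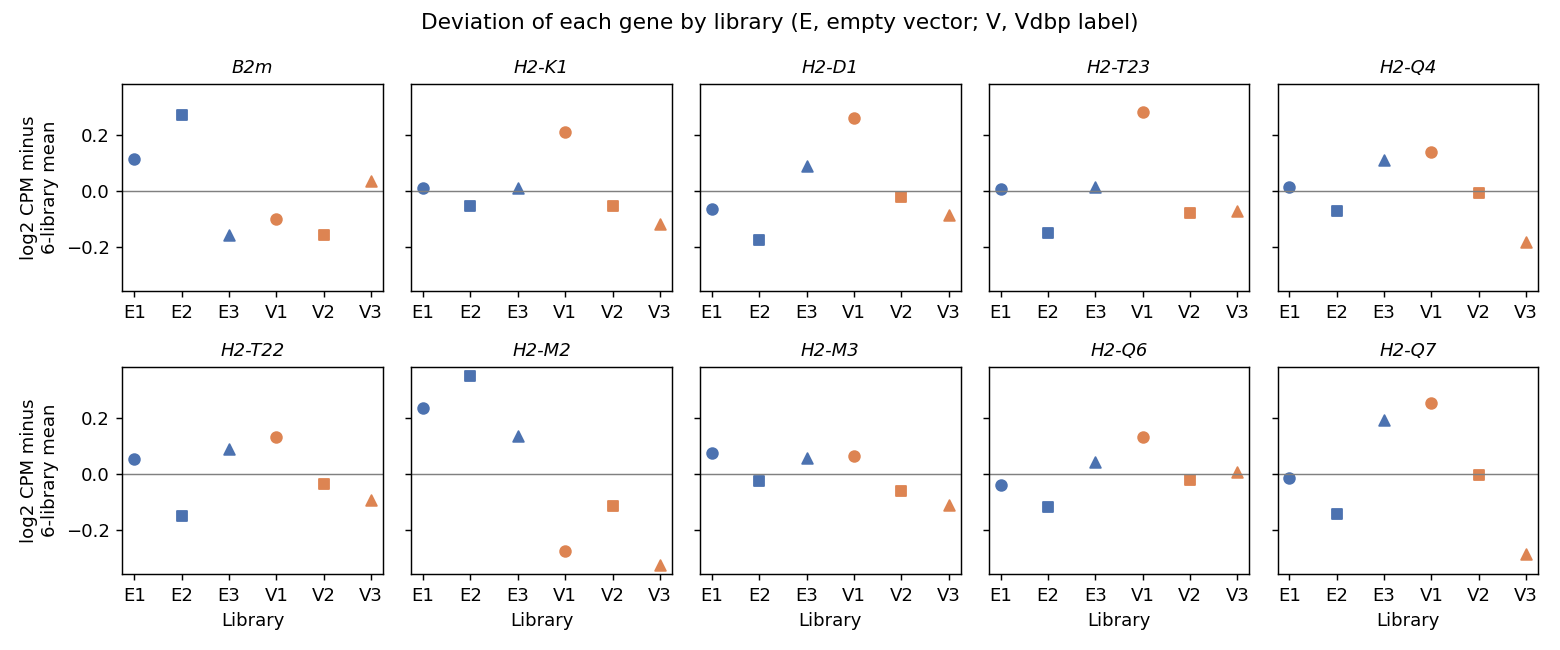
Log2 CPM of each gene minus its mean over 6 libraries, 1 panel per gene, 1 point per library (E1 to E3, empty vector; V1 to V3, Vdbp label). V1 is the top point in 7 of 9 heavy-chain panels, E2 is the top point for B2m, and in the H2-M2 panel the 3 orange points lie below the 3 blue ones.

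The balance of heavy chains to light chain therefore varied between libraries. The summed FPKM of the 9 heavy chains over that of B2m was 0.503 in empty-vector replicate 1, 0.424 in replicate 2 and 0.637 in replicate 3. It was 0.690 in Vdbp replicate 1, 0.597 in replicate 2 and 0.499 in replicate 3. The means were 0.521 ± 0.108 and 0.595 ± 0.0955 (SD, n = 3 each), a difference smaller than either SD. With the transcript lengths they were 0.757 ± 0.154 and 0.864 ± 0.139. The order of the 6 libraries by this ratio was the order of their rho with GC content given above (Spearman's rho 1, exact permutation p 0.00278, the smallest that 720 permutations can give for a two-sided test; Pearson's r 0.917, exact permutation p 0.00694; n = 6). Without the libraries farthest from the median rho, Vdbp replicate 1 and empty-vector replicate 2, Pearson's r was 0.771 over 4. This was the only relation computed, and it was chosen after the values were seen. The ratio and the rho are also not separate measures, because the ratio sets transcripts of higher GC content over one of lower GC content. Such a relation was therefore likely beforehand, and its p-values are not independent evidence. Why the ratio varied between libraries was not tested. The 9 heavy-chain transcripts had GC contents of 47.7% to 55.9%, all above that of B2m. After the length and GC correction the empty-vector libraries had ratios of 0.503, 0.517 and 0.646 and the Vdbp libraries 0.488, 0.620 and 0.550. The corrected means were 0.555 ± 0.0788 and 0.552 ± 0.0660. The correction was itself fitted to these libraries.

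**Figure D4:**
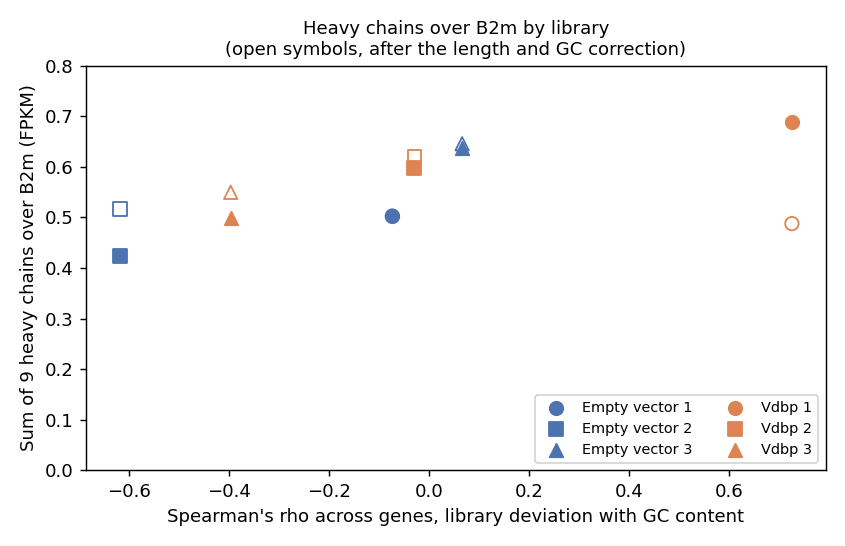
Summed FPKM of the 9 heavy chains over B2m FPKM for each library, against Spearman's rho across genes between that library's deviation and GC content (filled, as deposited; open, after the length and GC correction). Filled points rise from 0.424 to 0.690 in the order of rho, and Vdbp replicate 1 moves from 0.690 to 0.488 with the correction.

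Genes whose pattern was most like that of the 3 most abundant members were taken from 9549 other protein-coding genes with at least 5 CPM. For B2m they were C3ar1, the receptor of complement C3a (root mean square difference 0.0289 log2 units), Irak3, an inhibitor of Toll-like receptor signalling (0.0344), and Ptcd2 (0.0349). For H2-K1 they were Zfyve1 (0.00809), Mta1 (0.0170) and Sugp2 (0.0203). For H2-D1 they were Arhgap45 (0.0174), Midn (0.0175) and Slc27a1 (0.0188). Each value is over 6 libraries, and no other member of the class I set was among the 3 genes named for B2m, H2-K1 or H2-D1.

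The machinery that supplies and loads peptides had no gene past the test. Of 15 members, all tested, edgeR called 0 higher and 0 lower at an adjusted p under 0.05, with 10 log2 fold changes above 0 and a median of 0.06, which was 0.01 with the length and GC correction. Psmb8 and Psmb10, catalytic subunits of the immunoproteasome, had the smallest p of the list. Psmb8 had 58.3, 51.9 and 81.1 CPM with empty vector and 96.0, 87.8 and 66.6 CPM with the Vdbp label, a log2 fold change of 0.39 (SE 0.17, unadjusted p 0.0414 and adjusted p 0.781 in edgeR). Psmb10 had 54.8, 49.8 and 62.4 CPM against 79.9, 65.8 and 62.0 CPM, a log2 fold change of 0.31 (SE 0.13). With the correction Psmb10 was at 0.18 (95% interval 0.04 to 0.33, adjusted p 0.529 in edgeR). Psmb8 was then at 0.34 (95% interval 0.04 to 0.63, adjusted p 0.544 in edgeR). In both genes the groups overlapped. The most abundant members were the chaperones of the endoplasmic reticulum. Hspa5 averaged 1272 ± 45.9 and 1130.0 ± 97.6 CPM, Calr 1156 ± 93.9 and 1181 ± 119 CPM, and Pdia3, a disulfide isomerase of the loading complex, 786.5 ± 66.7 and 737 ± 87.0 CPM. The transporter gene Tap1 was at 94.8 ± 10.3 and 103 ± 18.5 CPM. Tapbpl was the only member with all Vdbp libraries above the empty-vector libraries, as were 5.26% of all tested genes. Hspa5 was the only one with all below, as were 5.61%. Tap1 and Tapbpl were named after their values were seen.

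Transcription factors and coactivators of class I genes were likewise without a call. All 13 were tested in edgeR and 0 passed in either direction, with a median log2 fold change of 0.01. In 2 of the 13 all Vdbp libraries were lower and in 1 all were higher, against 5.61% and 5.26% of all tested genes. Nlrc5, the coactivator of class I promoters, had 153, 147 and 142 CPM with empty vector and 139, 132 and 139.7 CPM with the Vdbp label. All 3 Vdbp values lay below the empty-vector values, and the log2 fold change was −0.11 (SE 0.09, adjusted p 0.784). Nfkb1, a subunit of NF-kB, averaged 231 ± 1.63 and 241 ± 3.15 CPM, and its groups did not overlap either (log2 fold change 0.06, SE 0.08). With the length and GC correction it was 0.19 (95% interval 0.03 to 0.34), with an unadjusted p of 0.0224 and an adjusted p of 0.529 in edgeR. Rela, another NF-kB subunit, averaged 93.6 ± 5.31 and 102 ± 11.02 CPM, and Nfyb, a subunit of the factor that binds CCAAT, 17.6 ± 0.77 and 15.5 ± 1.81 CPM. The log2 fold change of Rela was 0.13, and −0.03 with the correction.

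Most other class I and class I-like genes were at or near 0. Of 22 genes, 8 had 0 counts in all libraries and 9 were tested, with 0 called by edgeR and a median log2 fold change of −0.04. Of these log2 fold changes 1 was above 0 and 8 below, against 6253 and 6591 over all tested genes. With the length and GC offset 3 were above 0. H2-T24, another gene of the H2-T region, had 14.5, 14.1 and 12.2 CPM with empty vector and 11.6, 11.2 and 9.84 CPM with the Vdbp label. It was the only 1 of the 9 with all Vdbp libraries lower, as were 5.61% of all tested genes. Its log2 fold change was −0.32 (SE 0.14, unadjusted p 0.0400 and adjusted p 0.781 in edgeR). Ulbp1 and Raet1e, ligands of the activating receptor NKG2D, averaged 19.7 ± 2.67 and 17.3 ± 2.34 CPM, and 56.8 ± 4.10 and 56.2 ± 2.49 CPM. Cd1d1, which presents lipids to natural killer T cells, averaged 19.4 ± 2.24 and 18.3 ± 1.47 CPM.

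**Figure D5:**
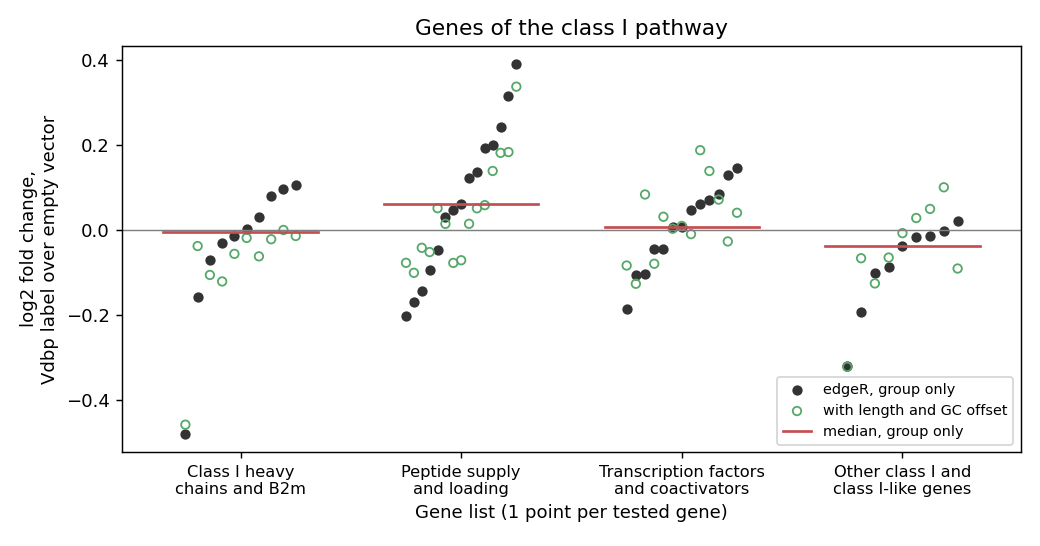
Log2 fold change, Vdbp label over empty vector, of each tested gene in 4 lists (filled, edgeR with group only; open, with the length and GC offset; red line, median of the filled points). The medians are −0.01, 0.06, 0.01 and −0.04, and no gene passed an adjusted p under 0.05.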

How the data were processed

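The counts are the authors' deposited counts per Ensembl gene, not normalised, and the FPKM table was deposited by the authors for the same genes. HISAT2 and StringTie are named, with no version, in the submitters' processing notes. The sources used here do not give the counter, build or annotation. Each FPKM equalled the count over the table's gene length and 1 constant per library (largest relative gap 5.11e-15). GENCODE M21 (GRCm38) held 99.8% of the table's identifiers and gave GC contents and transcripts.

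Groups came from the titles. In R 4.3.3, edgeR 4.0.16 was fitted to all genes kept by filterByExpr (minimum count 10, total 15, proportion 0.7) with TMM scaling and group as the only term; p-values are two-sided. The length and GC offset was a smooth trend per library fitted with mgcv 1.9.3. The fit was tested on simulated data. Alternatives used DESeq2 1.42.0, limma 3.58.1, other filters, scalings and gene lengths, the replicate block, and single libraries left out. All 10 members were named; of each pathway list, genes past the threshold, the 3 most abundant and the 2 with the smallest p. The members, lists and motifs were chosen with earlier results of these data known. Libraries with the same replicate number did not deviate together, so they were not treated as pairs.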

Additional observations from a re-analysis of the deposited data

How the results depend on the processing

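No member was called under any alternative run, and H2-M2, B2m and H2-M3 kept the sign of their log2 fold change in all 19. H2-M2 lay between −0.54 and −0.40, with adjusted p of 0.116 (no filter on low counts) to 1.00. The number of genes called over the whole table moved from 0 to 4 with DESeq2 on the 24135 genes with counts (Cd274, Arg1 and Wfdc17 lower, Entpd4b higher), 11 with DESeq2 on the 12844 genes of the main test (chosen after seeing the data), 89 with no filter on low counts, 2 with the length and GC offset (Cd274 and Arg1, both lower), and 2 with empty-vector replicate 2 and Vdbp replicate 1 both left out, an alternative chosen after seeing the data (Rpl30-ps10 and Gm10123, both lower). It ranged from 0 to 22 with single libraries left out, 22 without empty-vector replicate 3 and 1 without empty-vector replicate 2 (Rpl30-ps10).

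Small log2 fold changes turned sign, and the cause was not tested. With the length and GC offset those of H2-K1, H2-D1, H2-Q6, H2-T22 and H2-T23 were −0.062, −0.014, −0.022, −0.019 and −0.00026; with the replicate block added to that offset they were −0.063, −0.014, −0.022, −0.018 and −0.0016. With the libraries at both ends of the main axis left out they were −0.099, −0.072, −0.011, −0.14 and −0.090. H2-T22 was −0.0035 with total count scaling, and H2-Q6 and H2-Q7 summed gave 0.023. With single libraries left out, values ranged from −0.072 to 0.096 for H2-K1, −0.0056 to 0.18 for H2-D1, −0.11 to 0.049 for H2-Q4, −0.15 to 0.11 for H2-Q7, −0.067 to 0.050 for H2-T22 and −0.032 to 0.16 for H2-T23. B2m was −0.27 with empty-vector replicate 3 left out and −0.056 with empty-vector replicate 2 left out. TPM left the ratio of heavy chains to B2m as it was, by construction.

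With the replicate block alone 0 genes were called (695 at an unadjusted p under 0.05 against 687 without it), H2-M2 was −0.48 and B2m −0.15. Deviations of libraries with the same number correlated at 0.14, 0.034 and −0.27, and only empty-vector replicate 1 correlated best with its own number. At unadjusted p under 0.05 limma-voom had 701 genes and called 0. That number was 626 with DESeq2 and 613 on the main test's genes, 1142 with the length and GC offset, 1375 with no filter on low counts, and 258 (without empty-vector replicate 2) to 1532 (without Vdbp replicate 3) with single libraries left out. With the transcript lengths the per-length order changed for H2-K1 and H2-D1, H2-Q4 and H2-T22, and H2-Q6 and H2-Q7.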
